A study of Homo sapiens with 20 samples.

Results

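Open chromatin of untreated control cells was compared between the human colon adenocarcinoma cell lines LOVO and RKO, both established lines. Of 33434 intervals in the merged LOVO control peak list and 27977 in the merged RKO control peak list, 14950 were open in LOVO only and 3867 in RKO only, 18817 of 61411 in all. An interval was counted as open in one line only when it overlapped, by at least 1 bp, a peak of the other control list of its own line and no peak of either control list of the other line. Both lines carried a control short hairpin RNA (shControl) and received no drug. The series also holds cells of each line with a hairpin against METTL3 (shMETTL3), the methyltransferase that places N6-methyladenosine on RNA, and cells of either kind treated with olaparib, which blocks poly(ADP-ribose) polymerase. Its title concerns LINE1 RNA demethylation, chromatin accessibility and DNA repair. The labels list 20 samples, 10 per line, with 4 untreated shControl samples per line (the labels assign 2 to a second batch) and 2 samples for every other group. The label of each sample gives only the line and the cell type, and the dose of olaparib, its duration and the clonality of the knockdown cells are not stated in those labels.

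ATAC-seq marks DNA that a transposase can reach, which in most cells means active promoters and distal regulatory elements. Promoters of widely used genes are open in most cell types, whereas distal elements differ from one cell type to another. In the gut epithelium, factors such as CDX2, HNF4A and ELF3 bind promoters and distal elements of genes for absorption, secretion and adhesion. Neither DNA methylation nor copy number was measured here.

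The sequences below show gene starts that were open in one line only, to let a reader see the letters at and beside the peaks. They are the 250 bases before the gene start on the gene's own strand, from RefSeq on GRCh38.p14, and the capitals mark matches to short motifs searched on both strands. For AP-1, the stress and growth factor complex, the letters were TGANTCA. For TEAD factors, the partners of YAP, they were GGAATG. The HNF4 motif was CAAAGTC, for nuclear receptors of liver and gut. The HNF1 motif was GTTAAT, for homeobox factors of the same tissues. For CDX factors of the intestine the search used TTTATNG. For GATA factors, zinc finger proteins of gut and blood, it used AGATAA. The ETS family, with many members in every cell, was searched as CCGGAAG. MUC13, GPA33 and HNF4A were open in LOVO only, while TUBB3 and ZNF222 were open in RKO only. All of these hold a motif match, whereas the same stretch of other line-only genes, such as LGALS4, EHF, AXL and FGFR3, holds none. The merged and scored RKO control peaks covered 169 and 177 of the 250 TUBB3 bases. The MUC13 stretch lies at chr3:124934752-124935001 on the minus strand, GPA33 at chr1:167090378-167090627 on the minus strand, HNF4A at chr20:44355449-44355698 on the plus strand, TUBB3 at chr16:89921675-89921924 on the plus strand and ZNF222 at chr19:44025129-44025378 on the plus strand.
MUC13: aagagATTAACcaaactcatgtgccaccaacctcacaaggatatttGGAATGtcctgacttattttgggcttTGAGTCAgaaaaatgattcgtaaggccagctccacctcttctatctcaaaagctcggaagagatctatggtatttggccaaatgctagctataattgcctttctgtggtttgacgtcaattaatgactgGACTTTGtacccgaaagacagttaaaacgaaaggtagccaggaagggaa
GPA33: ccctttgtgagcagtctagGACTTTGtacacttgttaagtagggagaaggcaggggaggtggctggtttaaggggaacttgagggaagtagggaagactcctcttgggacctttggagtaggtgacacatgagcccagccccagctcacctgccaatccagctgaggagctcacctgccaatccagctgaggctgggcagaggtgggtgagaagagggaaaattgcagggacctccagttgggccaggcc
HNF4A: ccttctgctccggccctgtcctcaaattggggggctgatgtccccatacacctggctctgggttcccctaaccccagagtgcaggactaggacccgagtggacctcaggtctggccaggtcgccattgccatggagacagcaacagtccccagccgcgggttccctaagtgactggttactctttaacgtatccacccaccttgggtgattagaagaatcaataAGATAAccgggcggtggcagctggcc
TUBB3: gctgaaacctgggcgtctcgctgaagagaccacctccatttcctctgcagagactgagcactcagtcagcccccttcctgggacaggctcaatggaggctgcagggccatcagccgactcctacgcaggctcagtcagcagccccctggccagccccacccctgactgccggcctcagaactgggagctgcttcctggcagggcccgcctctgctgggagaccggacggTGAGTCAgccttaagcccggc
ZNF222: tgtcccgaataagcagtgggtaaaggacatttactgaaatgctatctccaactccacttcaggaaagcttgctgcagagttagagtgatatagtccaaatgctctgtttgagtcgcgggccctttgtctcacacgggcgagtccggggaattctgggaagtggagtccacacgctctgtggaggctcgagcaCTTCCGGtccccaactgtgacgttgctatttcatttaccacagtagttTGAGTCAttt

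The intervals rest on 10 deposited peak lists, 5 per line, each covering a group rather than a sample, so that no spread between samples could be computed and no test was possible. The lists come in 2 forms. The scored lists hold each interval with a peak score, and the merged lists hold intervals alone. Untreated shControl cells have a list of each form per line, and the pair of lists is the only repeat. The LOVO lists held 33434 merged and 41369 scored control intervals, and the RKO lists held 27977 merged and 21210 scored. Median widths were 571 bp (merged) and 289 bp (scored) in LOVO, against 429 bp and 297 bp in RKO. The depth of the libraries is unknown, and a missing peak in a shorter list does not show closed chromatin. Of 10 markers of colonic epithelium, 6 and 8 were open at their start in the merged and scored LOVO lists, and 3 in each RKO list. For markers without a strand in the RefSeq promoter table, KRT19 and VIL1 among them, a peak at either end of the gene counted. The 3 in RKO were CDX2, EPCAM and KRT18. VIL1, LGALS4, KRT8 and KRT19 had no peak at the start in either RKO control list. Of 5 leukocyte markers, 1 and 2 were open in the LOVO lists, and 1 in each RKO list; of 4 neuronal markers, 2 in each LOVO list, and 1 and 0 in the RKO lists.

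LOVO-only intervals made up 44.7% of the merged LOVO list (95% exact binomial interval 44.2 to 45.2%), and RKO-only intervals 13.8% of the merged RKO list (13.4 to 14.2%). These intervals cover counting error only. A further 11712 LOVO intervals and 11797 RKO intervals were shared, that is, open in all 4 control lists. The remaining 6772 LOVO and 12313 RKO intervals changed their state with the pair of lists. The repeat held for a larger share of the LOVO intervals. When the merged lists alone were compared, 18668 LOVO intervals and 12708 RKO intervals had no partner, and of these 80.1% of the LOVO ones and 30.4% of the RKO ones kept that state when the scored lists were added. In LOVO, 4092 merged intervals had no peak in the scored list of the same line, against 10314 in RKO.

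**Figure D1:**
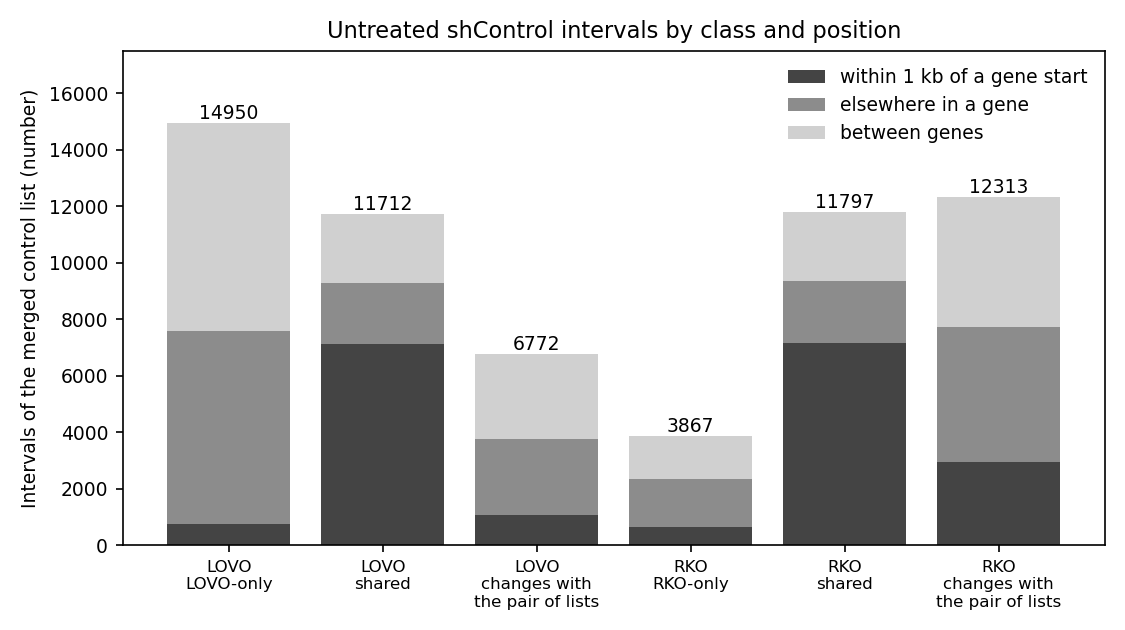
Number of intervals of each merged control list (y axis) that were open in one line only, shared by all 4 control lists, or changed with the pair of lists; shades give the position relative to protein-coding genes. Most of the 14950 LOVO-only and 3867 RKO-only intervals lay away from gene starts, whereas most of the 11712 and 11797 shared intervals lay at them.

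List length bears on these counts. With both pairs reduced to equal numbers of intervals (27977 merged and 21210 scored in each line), there were 8075 LOVO-only and 5689 RKO-only intervals, 28.9% and 20.3% of the lists. All 8075 were among the LOVO-only intervals described here, and they were 54.0% of them. Of the 5689, 3867 (68.0%) were the RKO-only intervals described here and the others were added when the LOVO lists became shorter. The median gap to the nearest control peak of the other line was 29.7 kb for LOVO-only and 12 kb for RKO-only intervals, and 13 LOVO-only and 25 RKO-only intervals had a peak of the other line within 100 bp. Within 1 kb such a peak lay beside 2.05% of LOVO-only and 10.9% of RKO-only intervals.

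Line-only intervals lay mostly outside promoters. Of the LOVO-only intervals 5.17% (4.82 to 5.54%) overlapped the 1000 bp on either side of a protein-coding gene start, 45.5% lay elsewhere inside a gene and 49.3% lay between genes. Of the RKO-only intervals 16.5% (15.3 to 17.7%) lay at a gene start, 44.4% elsewhere in a gene and 39.1% between genes. Among shared intervals the share at gene starts was 60.9% in the LOVO list and 60.8% in the RKO list. From the middle of an interval to the nearest gene start, the median distance was 44.4 kb for LOVO-only and 18.4 kb for RKO-only intervals, against 0.317 kb and 0.341 kb for shared intervals of the LOVO and RKO lists. LOVO-only intervals were narrower than the shared ones of the same list, with medians of 511 bp and 841 bp. RKO-only intervals had a median of 351 bp, against 726 bp for shared ones. Median peak scores were 9.76 for LOVO-only and 11.6 for shared LOVO intervals, and 7.42 for RKO-only and 8.12 for shared RKO intervals; these are the authors' values and were not compared between lines. Another LOVO-only interval lay within 10 kb of 22.9% of the LOVO-only ones (22.2 to 23.6%). Another RKO-only interval lay that near to 10.3% of the RKO-only ones (9.35 to 11.3%). For shared intervals, another shared one lay that near to 13.3% in the LOVO list and 15.1% in the RKO list. The numbers of intervals in each class differ, and their part in this spacing was not tested.

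The chromosomes differed in their share of line-only intervals. LOVO-only intervals took from 22.2% of the merged LOVO list on chromosome 19 (19.9 to 24.7%) to 53.9% on chromosome 4 (51.5 to 56.2%). Chromosome 19 also had the highest share of LOVO intervals at gene starts, 47.6%, and chromosome 4 had 21.5%. RKO-only intervals took from 10.4% of the merged RKO list on chromosome 12 to 20.9% on chromosome 8 (18.7 to 23.1%), with 18.8% on chromosome 9 (16.8 to 21%). Copy number was not measured, and its part in these shares cannot be told apart from that of accessibility.

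The 6 lists that took no part in choosing the intervals show the state of each class in cells with the METTL3 hairpin or olaparib. The untreated shMETTL3 lists are merged lists and the olaparib lists are scored lists, so that the group and the form of the list cannot be told apart. Of the 14950 LOVO-only intervals, 79.5% (78.9 to 80.2%) overlapped a peak in LOVO shControl cells with olaparib, 94.1% in LOVO shMETTL3 cells with olaparib and 44.6% in untreated LOVO shMETTL3 cells. In the RKO lists for the same 3 groups, 2.90%, 6.56% and 0.107% of them were open. Of the 3867 RKO-only intervals, 4.71%, 20.0% and 0.388% were open in the LOVO lists for those groups in the same order, and 86.6%, 92.6% and 15% in the RKO lists of those groups. With lists of equal number the RKO-only shares in the LOVO lists were 18.9%, 39.5% and 1.83%, and with an overlap of 50% of the interval 2.15%, 9.59% and 0.155%. At that overlap the LOVO-only shares in the RKO lists were 1.08%, 2.35% and 0.0268%, and the share of RKO-only intervals in untreated RKO shMETTL3 cells was 6.67%. No peak in the 3 further lists of the other line overlapped 92.4% of the LOVO-only intervals and 78.3% of the RKO-only intervals. The untreated shMETTL3 lists are the shortest, with 16405 intervals in LOVO and 6916 in RKO, and the LOVO shMETTL3 list with olaparib is the longest, with 51384. Of shared intervals in the LOVO merged list, 68.6% were open in untreated LOVO shMETTL3 cells and 44.8% in untreated RKO shMETTL3 cells. Taken by control peak score, 14.0% of the LOVO-only intervals in the lowest of 5 equal groups and 86.8% of those in the highest were open in LOVO shMETTL3 cells. For RKO-only intervals in RKO shMETTL3 cells the lowest group gave 7.24% and the highest 33.3%. The lowest group of RKO-only intervals held 29.1% at gene starts and the highest 7.24%.

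**Figure D2:**
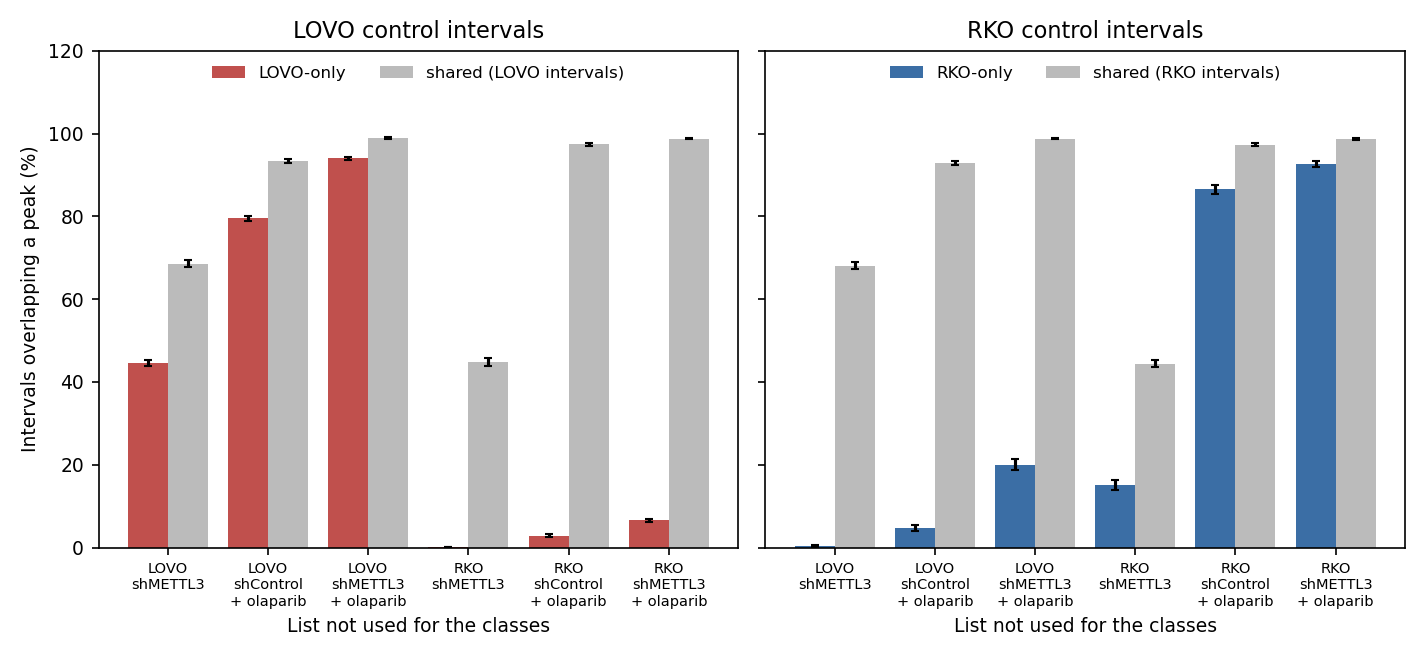
Share of LOVO-only and RKO-only intervals (coloured) and of shared intervals (grey) that overlapped a peak in each of 6 lists not used for the classes; error bars are 95% exact binomial intervals for counting error only. LOVO-only intervals were open at 44.6 to 94.1% in the LOVO lists and at 0.107 to 6.56% in the RKO lists. RKO-only intervals were open at 0.388 to 20.0% in the LOVO lists, at 86.6% and 92.6% in the RKO olaparib lists and at 15% in the untreated RKO shMETTL3 list.

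Each interval was given to 1 gene, the one with the nearest end within 50000 bp, and counts near a gene are of these intervals. The genes with the most LOVO-only intervals were ADGRF1, an adhesion G protein-coupled receptor, GDA, the guanine deaminase, KCNK1, a potassium channel, SUSD1 and TPRG1, with 9 each. EDN1, the precursor of endothelin, IL20RA, a cytokine receptor chain, PRAG1, SLC39A11, a zinc transporter, and ZNF608 had 8 each. CXADR, a tight junction adhesion protein, and EHF, an epithelial ETS factor, had 7 each. Around ADGRF1 the control lists held 10 merged and 9 scored LOVO intervals, against 0 and 0 in RKO. GDA had 9 and 12 in LOVO, against 0 and 0 in RKO. SUSD1 differed less, with 12 and 17 LOVO intervals against 5 and 3 RKO intervals. No gene had more than 5 RKO-only intervals. ITGB1, the integrin beta 1 chain, and RGS4, a regulator of G protein signalling, had 5 each. CDCP1, a transmembrane glycoprotein, HORMAD2, ITPR3, an inositol trisphosphate receptor, NEK6, a kinase, and SIX3, a homeobox factor, had 4 each, and CD274, the immune checkpoint ligand PD-L1, CDC14B and CPZ had 3 each. RGS4 had no interval in any of the 5 LOVO lists, and 5, 5, 1, 6 and 7 in the RKO lists of untreated shControl (merged and scored), untreated shMETTL3, olaparib-treated shControl and olaparib-treated shMETTL3. ITGB1, by contrast, had 5 and 6 LOVO control intervals beside 9 and 12 in RKO.

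Among windows of 1 Mb, the most LOVO-only intervals lay at 114 to 115 Mb of chromosome 10, with 32, where VWA2 and ADRB1, a beta-adrenergic receptor, are among the nearest genes. The window at 65 to 66 Mb of chromosome 17 had 31, with 5 each near AXIN2, a negative regulator of Wnt signalling, and RGS9. The window at 68 to 69 Mb of chromosome 14 had 30, of which 2 were nearest to ACTN1, 2 to RAD51B and 1 to ZFP36L1. The others had no protein-coding gene end within 50000 bp. RKO-only intervals reached 14 at 127 to 128 Mb of chromosome 9 and 12 in each of 3 others, at 129 to 130 Mb of chromosome 9 and at 3 to 4 and 37 to 38 Mb of chromosome 19. In the last of these, the nearest genes included the zinc finger genes ZFP30, ZNF420 and ZNF571.

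The widest LOVO-only intervals were 2219 bp near PRKAR1B, 2006 bp at a gene start of BCL2L14, 1999 bp at the start of VSNL1, a neuronal calcium sensor, 1938 bp near FOSL2, an AP-1 subunit, and 1930 bp in DENND2D. The highest scores among LOVO-only intervals were 28.8 near GDA, 26.2 near COBL, 25.5 in MAP3K7CL, 25.4 near LEFTY1 and 25.1 in ZSWIM5. The GDA interval overlapped a peak in all 5 LOVO lists and in 1 RKO list, and the other 4 in all 5 LOVO lists and no RKO list. The widest RKO-only intervals were 1948 bp at ZNF140, 1911 bp at GRIN1, a glutamate receptor subunit, and 1807 bp at ACTL10. Next were 1703 bp near LOC124900275 and 1634 bp at DVL3, a Wnt signal transducer. The highest RKO-only scores were 22.7 for an interval 919 kb from KCNV1 and 21.9 in MPP7. Next came 21.8 for an interval 21.5 kb from the nearest end of FARP1, 21.5 in LIMD1 and 20.6 in DIP2B. The KCNV1 interval was open in no LOVO list and in all 5 RKO lists.

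A gene was counted as open in a list when a peak overlapped the 1000 bp on either side of its start. The start was taken from the RefSeq promoter table for 15812 of 19974 protein-coding genes, and for the other 4162, which had no strand there, a peak at either end of the gene counted. With this rule 700 genes (3.5%) were open in both LOVO control lists and in neither RKO list, and 414 (2.07%) in both RKO control lists and in neither LOVO list. In all 4 lists 8198 genes were open, and 7876 were open in none. The order of these counts depended on the lists: the scored pair alone gave 2172 LOVO-only and 556 RKO-only genes, the merged pair alone 849 and 1570, and lists reduced to equal numbers 383 and 942. Of the 700 LOVO-only genes, 602 were open in LOVO shControl cells with olaparib and 34 in the RKO ones. Of the 414 RKO-only genes, 57 were open in LOVO shControl cells with olaparib and 370 in the RKO ones. In all 5 lists of their own line and in none of the other stood 255 LOVO-only and 62 RKO-only genes. An interval counted as line-only lay at the start of 687 of the 700 LOVO-only genes and of 389 of the 414 RKO-only genes.

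Genes of gut identity were open in LOVO more often than in RKO. Of 25 gut transcription factors, 5 were LOVO-only (EHF, ELF3, FOXA2 and HNF4A among them) and none was RKO-only, against 3.5% and 2.07% of all genes. Of the 25, 9 were open in all 4 lists, 6 in none, and 5 (HES1, ISX, PPARG and SOX9 among them) changed with the pair of lists. HNF4A, a nuclear receptor of liver and gut epithelium, had a peak at its start in all 5 LOVO lists and in no RKO list; the control peak spanned 1081 bp (chr20:44355236-44356316) in the merged list and 495 bp in the scored one, with a score of 10.2. ELF3, an epithelial ETS factor, was open in all 5 LOVO lists over 1363 bp in the merged control list (score 11.0 in the scored one) and in no RKO list. CDX2, the intestinal homeobox factor, was open in all 5 LOVO and in 4 RKO lists, all but RKO shMETTL3; its control peaks spanned 747 bp and 315 bp in LOVO, against 783 bp and 233 bp in RKO, with scores of 10.6 in LOVO and 4.93 in RKO, which come from separate lists. Nearest to the 25 factors, within 50000 bp, lay 47 LOVO-only and 2 RKO-only intervals, or 1.88 and 0.08 per gene, against 0.457 and 0.149 per gene over all protein-coding genes.

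Surface, brush border and secretory genes of the colonocyte had the highest LOVO-only share of the lists examined. Of 25 genes, 6 were LOVO-only (AGR2, GPA33, GUCY2C, LGALS4, MUC13 and VIL1) and none was RKO-only, against 3.5% and 2.07% of all genes. Another 13 had no peak at the start in any control list, among them MUC2, TFF3 and SLC26A3. GPA33, a surface antigen of gut epithelium, was open in all 5 LOVO lists, with a merged peak of 705 bp (chr1:167090202-167090906) and a score of 15 in the scored control list. All 250 bases of its printed promoter lay under the LOVO peaks. LGALS4, a galectin of the gut, was open in all 5 LOVO lists with scores of 13.1, 12.5 and 19.9 in the scored lists of untreated shControl, olaparib-treated shControl and olaparib-treated shMETTL3. VIL1, which encodes the brush border protein villin, was open in 4 LOVO lists, with a control score of 9.91. MUC13, a membrane mucin, was open in 3 LOVO lists (both control lists and shMETTL3 with olaparib), with a merged peak of 385 bp and a score of 5.37. None of these genes was open in any RKO list. Nearest to the 25 genes lay 32 LOVO-only intervals, or 1.28 per gene, and no RKO-only interval. Over all protein-coding genes there were 0.457 LOVO-only and 0.149 RKO-only intervals per gene.

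Of 24 epithelial adhesion and keratin genes, 5 were LOVO-only (CLDN1, JUP, KRT19, KRT8 and MARVELD3) and none was RKO-only. All protein-coding genes gave 3.5% and 2.07%. Another 7 of the 24, CDH1 and KRT18 among them, changed with the pair of lists. CLDN1, a tight junction claudin, was open in all 5 LOVO lists over 849 bp in the merged control list. KRT8 and KRT19, keratins of simple epithelia, were open in all 5 LOVO lists and no RKO list, but their merged control intervals are not among the LOVO-only ones, since each reached an RKO peak that lies outside the window. The KRT8 peak spanned 2737 bp at a start inside the gene's span, and the call was lost when both gene ends were used. For KRT19, whose strand is not in the table, the merged control peak lay at the end with the lower coordinate. Whether that end is its start cannot be told from the table, and the call was lost with windows of 500 bp and 2500 bp. Nearest to the genes of this list lay 44 LOVO-only intervals and 2 RKO-only ones, or 1.83 and 0.0833 per gene. The values over all protein-coding genes were 0.457 and 0.149 per gene.

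**Figure D3:**
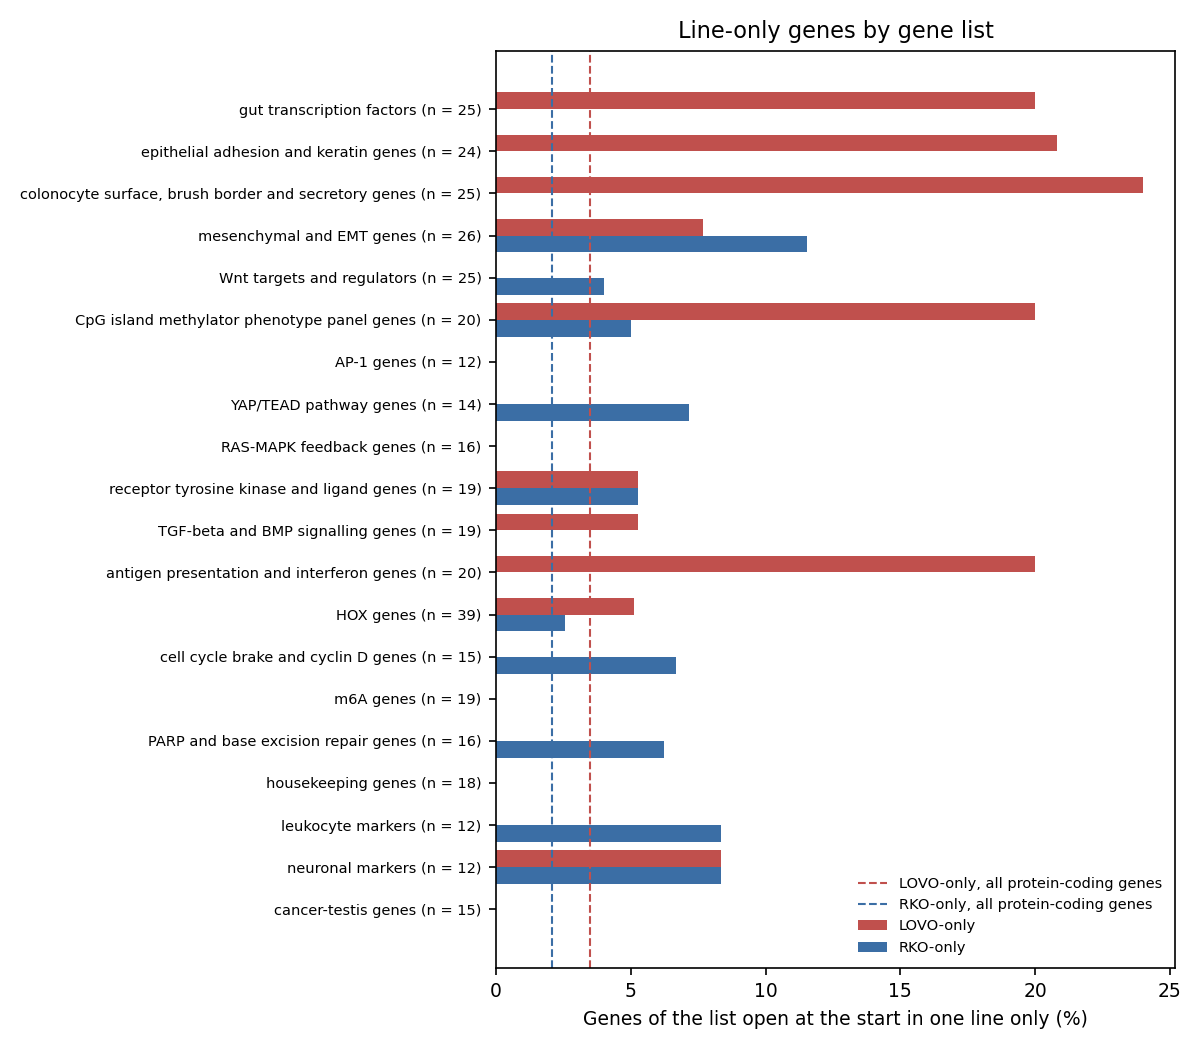
Share of the genes of 20 lists (x axis, %) that were open at the start in both control lists of one line and neither of the other; dashed lines give the share over all protein-coding genes, 3.5% for LOVO-only and 2.07% for RKO-only. The gut, epithelial and colonocyte lists, the CpG island methylator panel and the antigen presentation and interferon list reached 20.0 to 24.0% LOVO-only.

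Mesenchymal genes were open in either line. Of 26 genes, 2 (7.69%) were LOVO-only (TGFBI and VIM) and 3 (11.5%) RKO-only (AXL, COL1A1 and TAGLN), against 3.5% and 2.07% of all genes. A further 4 were open in all 4 lists and 12 in none. AXL, a receptor tyrosine kinase, was open in no LOVO list and in 4 RKO lists, all but shMETTL3, with peaks of 269 bp and 376 bp in the control lists and a score of 3.31. TAGLN, an actin-binding protein of smooth muscle, was open in no LOVO list and in 4 RKO lists, with scores of 6.69, 7.26 and 8.82. VIM, the intermediate filament vimentin, was open in 4 LOVO lists, with a score of 5.55 in the control list, and in no RKO list. The VIM call was lost with a window of 2500 bp and with lists of equal number. VIM was also the nearest gene to 1 RKO-only interval. COL1A1, a collagen chain, was open in 1 LOVO list, shControl with olaparib, and in 3 RKO lists. The COL1A1 call was lost with windows of 500 bp and 2500 bp, and the AXL call when both ends of every gene were used. Of 14 genes of the YAP and TEAD pathway, AXL was the only line-only gene, in RKO.

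Of 20 genes used in panels for the CpG island methylator phenotype, 4 were LOVO-only (CACNA1G, HIC1 and THBS1 among them). A single gene, NDRG4, was RKO-only and 11 were open in no list. Among all genes 3.5% were LOVO-only and 2.07% RKO-only. HIC1, a transcriptional repressor, had a peak in 4 LOVO lists and in 1 RKO list, shMETTL3 with olaparib.

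Of 20 antigen presentation and interferon genes, 4 were LOVO-only (HLA-B, HLA-DRA, OAS1 and STING1), none was RKO-only and 15 were open in all 4 lists. The shares over all genes were 3.5% LOVO-only and 2.07% RKO-only. STING1, an adaptor for sensing cytosolic DNA, was open in all 5 LOVO lists with a merged peak of 1093 bp and a control score of 10.3. HLA-DRA, a class II chain, was open in all 5 LOVO lists with a score of 14.4. Neither was open in any RKO list. CD274 was open at its start in all 4 control lists, and it was the nearest gene to 3 RKO-only intervals.

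The other lists held 0 to 2 line-only genes per line. Over all protein-coding genes 3.5% were LOVO-only and 2.07% RKO-only. At those shares a list of this size holds few such genes or none. Of 25 Wnt targets and regulators none was LOVO-only and LEF1, a Wnt effector, was RKO-only, at a start inside the gene that is not the upstream end. EREG, an EGF receptor ligand, was open in all 5 LOVO lists and no RKO list, and FGFR3, a growth factor receptor, in no LOVO list and 4 RKO lists. SKI, a repressor of TGF-beta signalling, was LOVO-only and open in 1 RKO list. Of 39 HOX genes, HOXB3 and HOXB5 were LOVO-only and HOXB6, the neighbour of HOXB5, was RKO-only. HOXB3 ends at 48590241 and HOXB5 begins at 48591257 of chromosome 17, so that a single peak can count for both. No LOVO-only interval had HOXB5 as its nearest gene, and the calls of HOXB5 and HOXB6 were lost with a window of 500 bp. CDKN1C, a cell cycle inhibitor, was open in no LOVO list and all 5 RKO lists. NEIL1, a DNA glycosylase of base excision repair, was the RKO-only gene among 16 PARP and base excision repair genes and was open in 1 LOVO list. Of the neuronal genes SNAP25 was LOVO-only and TUBB3, a neuronal tubulin, was RKO-only, and of the leukocyte genes LCP1 was RKO-only. No line-only gene was found among 19 m6A genes, 18 housekeeping genes, 12 AP-1 genes, 16 RAS-MAPK feedback genes or 15 cancer-testis genes; 16 of the m6A genes were open in all 4 control lists.

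Of the 42 list genes open in one line only, 22 kept that state under the 4 alternatives that could remove a call (2 other windows, lists of equal number and both ends of every gene), among them HNF4A, ELF3, GPA33, LGALS4, VIL1, CLDN1 and STING1 in LOVO and TAGLN, FGFR3, TUBB3 and CDKN1C in RKO. Lists of equal number shorten the LOVO lists alone and so cannot remove an RKO-only call. With these lists CACNA1G, EHF, EREG, FOXA2, HIC1, HOXB3, HOXB5, MARVELD3, MUC13, SNAP25, THBS1 and VIM lost it. With both ends of every gene AXL, EHF, KRT8, LCP1, LEF1 and NDRG4 lost it. With a window of 500 bp COL1A1, FOXA2, HOXB5, HOXB6, KRT19, MARVELD3 and SNAP25 lost it, and with a window of 2500 bp CACNA1G, COL1A1, KRT19, KRT8, LEF1, SNAP25, THBS1 and VIM.

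**Figure D4:**
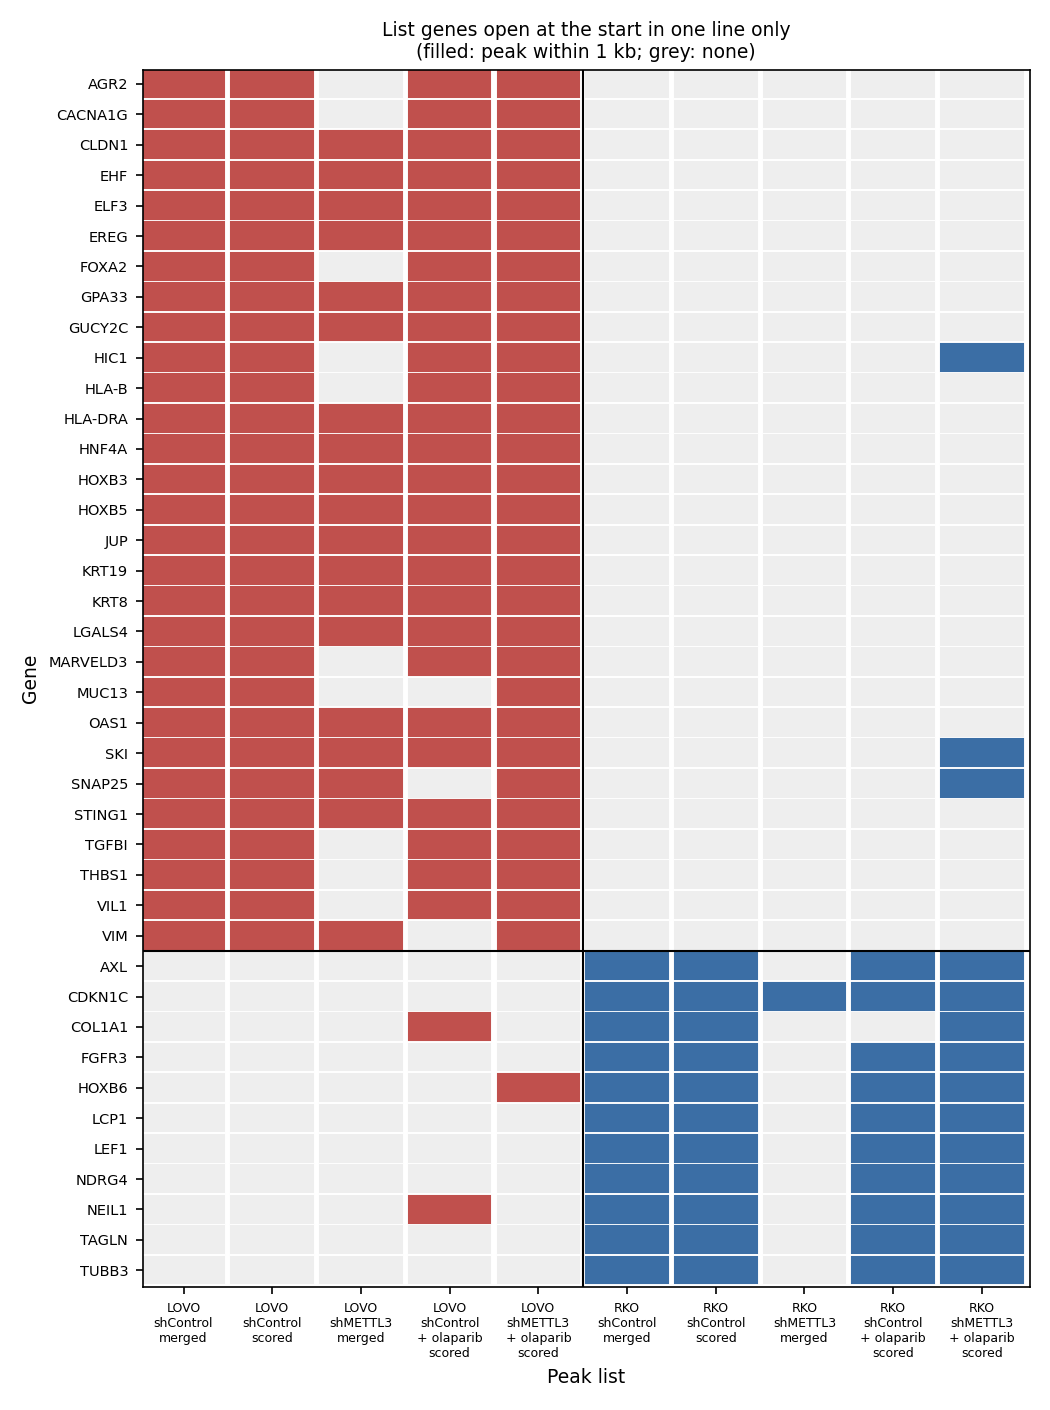
State of 40 list genes that were open in one line only, in each of the 10 peak lists (columns; LOVO lists on the left); a filled square is a peak within 1 kb of the start. The 29 LOVO-only genes shown stand above the line and the 11 RKO-only genes under it. HIC1, SKI and SNAP25 were also open in 1 RKO list, and COL1A1, HOXB6 and NEIL1 in 1 LOVO list.

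Zinc finger genes were looked at after their values were seen, because they were among the nearest genes of an RKO-only window. Of 538 genes named ZNF or ZFP, 11 (2.04%) were LOVO-only and 55 (10.2%) RKO-only, against 3.5% and 2.07% of all genes. On chromosome 19 stood 255 of them, of which 4 were LOVO-only and 46 (18.0%) RKO-only, against 67 RKO-only genes (4.62%) among all 1451 genes of that chromosome. Of the 46, 42 were open in none of the 5 LOVO lists. In the LOVO lists of shControl with olaparib and of shMETTL3 with olaparib 3 of the 46 were open, against all 46 in the RKO lists of those groups. Untreated shMETTL3 cells had 0 of the 46 open in LOVO and 24 in RKO. In the merged pair alone the counts were 4 LOVO-only and 59 RKO-only, and in the scored pair alone 19 and 51. Among all 1451 genes of that chromosome, the merged pair alone gave 175 RKO-only genes and the scored pair alone 80. Each pair holds at least the genes called in both. In 1 Mb windows, 6 of 15 zinc finger genes at 36 Mb and 7 of 14 at 37 Mb were RKO-only. At 44 Mb 7 of 15 were, and at 57 Mb 8 of 31, against 18.0% of all 255. Genes open in all 4 control lists or in none stood between them. ZNF222, whose start is printed above, lies in the window at 44 Mb. Many of these genes are alike in sequence, and the handling of reads with several matches is not stated in the labels.

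**Figure D5:**
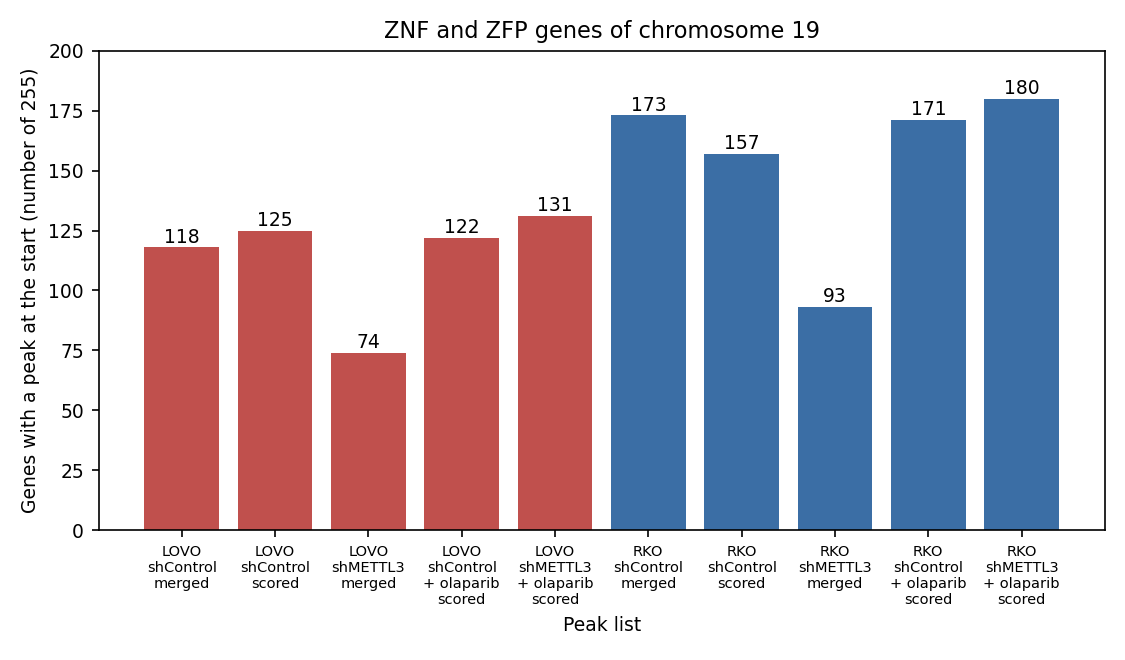
Number of the 255 ZNF and ZFP genes of chromosome 19 with a peak at the start in each peak list (LOVO lists on the left). The control lists held 118 and 125 in LOVO and 173 and 157 in RKO, and the untreated shMETTL3 lists 74 in LOVO and 93 in RKO.

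Short motifs in the RefSeq promoter sequences, 250 bases before to 50 bases after the start, were counted for the genes with a sequence: 517 LOVO-only, 323 RKO-only, 6893 open in all 4 control lists and 5937 open in none, of 15812. The AP-1 motif stood in 10.1% of LOVO-only promoters (7.60 to 13.0%), 7.12% of RKO-only promoters (4.57 to 10.5%), 3.64% of those open in all 4 lists, 7.92% of those open in none and 5.76% of all. The HNF4 motif stood in 4.45%, 1.86%, 2.23% and 3.96% of the same 4 groups and in 2.98% of all, and the HNF1 motif in 6.96%, 3.72%, 2.76% and 8.71%, and in 5.26% of all. The CDX motif stood in 10.4% of LOVO-only, 5.26% of RKO-only and 8.11% of all promoters, and in 12% of those open in no control list. TEAD gave 14.1% in LOVO-only and 12.7% in RKO-only promoters, 11.7% in all and 13.8% in those open in no control list. GATA gave 7.54%, 4.02%, 7.55% and 13% in the same order. The HNF1, CDX and GATA shares were higher in promoters open in no control list than in LOVO-only ones. The ETS motif stood in 7.93% of LOVO-only and 13.6% of RKO-only promoters, against 23.8% of those open in all 4 lists, 3.67% of those open in none and 14.2% of all. The groups also differed in CG pairs, with a median per promoter of 18 in LOVO-only, 24 in RKO-only, 27 in genes open in all 4 lists, 7 in those open in none and 22 in all. The part of base composition in the motif shares was not tested. A match is a description of letters, and no motif searched contains another.

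Hairpins of microRNAs were counted when a peak lay within 1000 bp. Of 1558 hairpins, 29 (1.86%) were LOVO-only and 18 (1.16%) RKO-only. MIR194-1, a microRNA gene of gut epithelium, at chr1:220118157-220118241, and MIR128-1, at chr2:135665397-135665478, were open in all 5 LOVO lists and in no RKO list. MIR21, at chr17:59841266-59841337, was open in 1 LOVO list, shMETTL3 with olaparib, and in all 5 RKO lists, and MIR152, at chr17:48037161-48037247, in no LOVO list and 4 RKO lists. Their mature sequences from RefSeq are shown with the seed, bases 2 to 8, in capitals; no seed is shared between them, and the peak beside a hairpin does not measure the microRNA.
hsa-miR-194-5p: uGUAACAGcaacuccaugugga
hsa-miR-128-3p: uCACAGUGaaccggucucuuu
hsa-miR-21-5p: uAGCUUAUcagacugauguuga
hsa-miR-152-3p: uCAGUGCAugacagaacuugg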

How the data were processed

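ATAC-seq libraries of the 20 samples were made with a commercial kit, per the labels' protocols. MACS2 2.2.7.1, DiffBind 3.0.15, Bowtie2 2.4.2, Trim Galore 0.6.6 and the build hg38 are named, with no role, per the submitters' processing notes. The authors deposited 10 peak lists, of which the scored ones give a score per interval; its definition, read shifting, filters and how samples were combined are not given in the sources used here, and neither is which list holds the second batch. Intervals on chromosomes 1 to 22 and X were used. Overlaps were counted with Python 3.11.15 (numpy 2.4.6, pandas 2.3.3, scipy 1.17.1), with the same line-only counts from bedtools 2.31.1. Gene positions and sequences came from RefSeq (GRCh38.p14, the assembly of hg38). An interval was given to the gene with the nearest end, within 50000 bp, and distances run from the middle of the interval. No test, p-value or replicate error was computed, and 95% exact (Clopper-Pearson) intervals cover counting error only. Depth is unknown from peak lists. Named genes are those with the most line-only intervals (12 per line), list members open in one line only, the 5 widest and 5 highest-scored line-only intervals per line, and CDX2 and HNF4A; a few named genes and 1 gene list are left unreported; the other list genes, zinc finger genes and microRNAs are illustrations chosen after their values were seen. Members and gene lists were chosen with earlier results of these data known. On simulated lists made from the real ones, the code recovered 9962 of 9962 LOVO-only and 8345 of 8353 RKO-only intervals, with 0 false calls. The simulated lists dropped some intervals at random and shifted the rest slightly, so these counts check the overlap code and not the line-only calls. Peaks missing through list length or depth were not simulated. Alternatives were 50% overlap, windows of 500 bp and 2500 bp, either pair of lists alone, equal numbers, the upper part of the own scored list by its median score, and, chosen after seeing the data, both ends of every gene and genes with a strand only.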

Additional observations from a re-analysis of the deposited data

How the results depend on the processing

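The direction of the interval counts, more LOVO-only than RKO-only, held in every setting tried; that of the gene counts did not. The scored pair alone gave 26901 LOVO-only and 6736 RKO-only intervals and 2172 LOVO-only genes, the merged pair alone 12708 RKO-only intervals and 1570 RKO-only genes beside 849 LOVO-only ones. Lists of equal number gave 8075 LOVO-only intervals and 383 LOVO-only and 942 RKO-only genes. The upper part of the own scored list by its median score left 8891 LOVO-only and 1943 RKO-only intervals, since fewer peaks remain. With lists of equal number, the share of LOVO-only intervals open in the LOVO lists of untreated shMETTL3, olaparib-treated shControl and olaparib-treated shMETTL3 was 65.7%, 93.6% and 99.0%; RKO-only intervals were open in 1.83%, 18.9% and 39.5% of cases in those LOVO lists and in 87.7% in RKO shControl with olaparib, and 21.2% lay at gene starts. With an overlap of 50% of the interval, the LOVO-only shares were 36.1%, 56.5% and 71.6% in the LOVO lists and 0.0268%, 1.08% and 2.35% in the RKO lists, and the RKO-only shares 0.155%, 2.15% and 9.59% in the LOVO lists and 6.67%, 75.3% and 79.7% in the RKO lists, each in that order of groups. Windows of 500 bp and 2500 bp put 4.42% and 7.24% of LOVO-only and 11.1% and 23.7% of RKO-only intervals at gene starts. Of the 42 list genes called in one line only, 22 kept the call (17 of 31 LOVO-only, 5 of 11 RKO-only) under the 4 alternatives that could remove one; a call made in both pairs stands in either pair alone (42 of 42 in each), and lists of equal number cannot remove an RKO-only call. Lists of equal number kept 30, a window of 500 bp 35, one of 2500 bp 34 and, chosen after seeing the data, both ends of every gene 36. The cause of these shifts was not tested. No paired analysis was possible because each list is for a group and carries no sample values. Depth is unknown from peak lists, so a missing peak may mean a weaker library.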

Other observations

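Other gene families, chosen after their values were seen, gave these counts of genes open at the start in one line only, beside 3.5% LOVO-only and 2.07% RKO-only over all protein-coding genes. Of 85 interleukins and interleukin receptors, 7 (8.24%) were LOVO-only, namely IL18, IL1A, IL1F10, IL1R2, IL23R, IL2RG and IL6, and 1 (1.18%) was RKO-only, IL10RB. Of 53 protocadherin genes, which encode neuronal cell adhesion proteins, 1 (PCDHGC3) was LOVO-only and 5 were RKO-only (PCDHB11, PCDHB2, PCDHB8, PCDHGB2 and PCDHGC5). Of 386 solute carriers 12 (3.11%) were LOVO-only and 6 (1.55%) RKO-only. Of 392 olfactory receptor genes 1 (OR2L13) was LOVO-only and none RKO-only, and 386 were open in no control list.

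Other pathway members lay near line-only intervals without a line-only start. MET, a receptor tyrosine kinase, had 6 LOVO-only intervals and 1 RKO-only interval for which it was the nearest gene, within 50000 bp. PTPRC, a leukocyte phosphatase that is closed at its start in all 4 control lists, had 7 LOVO-only intervals. TSPAN8, a tetraspanin of gut epithelium, had 5 LOVO-only intervals, and ZEB1, a mesenchymal repressor, had 3 RKO-only intervals.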
